A study of Mus musculus with 12 samples.

Results

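The D cyclins and the genes that work with them in G1 are described here in the corneal endothelium of Col8a2 mutant mice: the D cyclins Ccnd1, Ccnd2 and Ccnd3, their kinases Cdk4 and Cdk6, the CDK inhibitors Cdkn1b, Cdkn1c, Cdkn2a and Cdkn2c, and the retinoblastoma gene Rb1. They were taken by symbol, as a set proposed with earlier results of these data known, and are 10 of the 32761 genes in the count table. Of these 10, 9 were among the 17965 genes that passed the low-count filter, and Cdkn2a was not. Each of the 12 libraries is RNA of corneal endothelium, the cell layer at the back of the cornea. Early mutant mice were homozygous for Col8a2 Q455K and at most 2 months old, and early wild-type mice were of the same age. Late mutant mice had the same genotype and were at least 8 months old, and late wild-type mice were of that age. Each of the 4 groups held 3 biological replicates. Col8a2 encodes a collagen VIII chain laid down in the basement membrane under these cells, and the mice are used as a model of Fuchs endothelial corneal dystrophy. The number of animals behind a library, their strain and their sex were not given in the sources used here. Batch 1 held the early and batch 2 the late libraries, which means that age cannot be told apart from batch.

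D-type cyclins are made when growth factor signals reach a cell, and they bind and activate CDK4 and CDK6. The active kinase phosphorylates the retinoblastoma protein, which then releases E2F transcription factors and lets the genes of DNA replication be expressed. INK4 inhibitors, among them p16 (a product of Cdkn2a) and p18 (Cdkn2c), bind CDK4 and CDK6 themselves. The CIP/KIP inhibitors p27 (Cdkn1b) and p57 (Cdkn1c) bind cyclin and kinase complexes. The mature corneal endothelium hardly divides and is held in G1.

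Total counts ran from 19722598 to 39431676 per library, at which 3 counts equal 0.0773 to 0.132 CPM (counts scaled to library size). Levels below are CPM after TMM scaling unless they are given per length. Replicate 2 of early wild type was the shallowest library, and replicate 1 of late wild type stood farthest from the others of its group. Its squared count deviations from replicates 2 and 3 averaged 235 and 237 times the sampling variance, against 59.2 times between replicates 2 and 3. The results were also computed without both, a choice made after seeing the data. A list of 14 corneal endothelial markers summed to 58100 to 70700 CPM in early mutant libraries and 59100 to 113000 CPM in early wild type, and to 41500 to 71700 CPM in late mutant libraries and 80900 to 102000 CPM in late wild type. Most of this sum was Car3, a carbonic anhydrase, at a mean of 52300 CPM in early mutant and 66900 CPM in early wild-type libraries, and 50000 CPM in late mutant and 79000 CPM in late wild-type libraries. Over the 14 genes the median log2 fold change was 0.37 early, with 9 above 0, and -0.20 late, with 6 above 0. By edgeR none passed early, and 1 passed late, Atp1b1, which was lower. Col8a2 itself averaged 938 ± 122 CPM in early mutant and 1180.0 ± 568 CPM in early wild-type libraries (SD, n = 3), and counts per gene do not show the point change that defines the genotype.

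Ccnd1 and Ccnd2 were higher in mutant than in wild-type endothelium at both stages, Ccnd1 by 10.9-fold early and 18.7-fold late and Ccnd2 by 6.96-fold early and 7.09-fold late. At the late stage the mutant also had more Cdk6 (2.76-fold) and Cdkn2c (4.09-fold) and less Cdkn1c (3.56-fold lower). Early, 2 of the 10 genes passed the threshold, both higher, against 0.59% of all genes tested (0.557% higher, 0.0334% lower). Late, 4 passed as higher and 1 as lower, against 5.47% of all genes tested (2.77% higher, 2.71% lower). Calls here and below are at a Benjamini-Hochberg adjusted p under 0.05 over all 17965 genes by edgeR's quasi-likelihood test. The genotypes did not overlap for 4 of the 10 genes early (Ccnd1, Ccnd2 and Ccnd3 higher, Cdk6 lower), against 21.9% of all genes tested (10.1% with the mutant higher, 11.8% lower). They did not overlap late for 6 (Ccnd1, Ccnd2, Ccnd3, Cdk6 and Cdkn2c higher, Cdkn1c lower), against 25.9% (14.9% higher, 10.9% lower). The median log2 fold change over all genes was -0.11 early and 0.001 late.

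**Figure D1:**
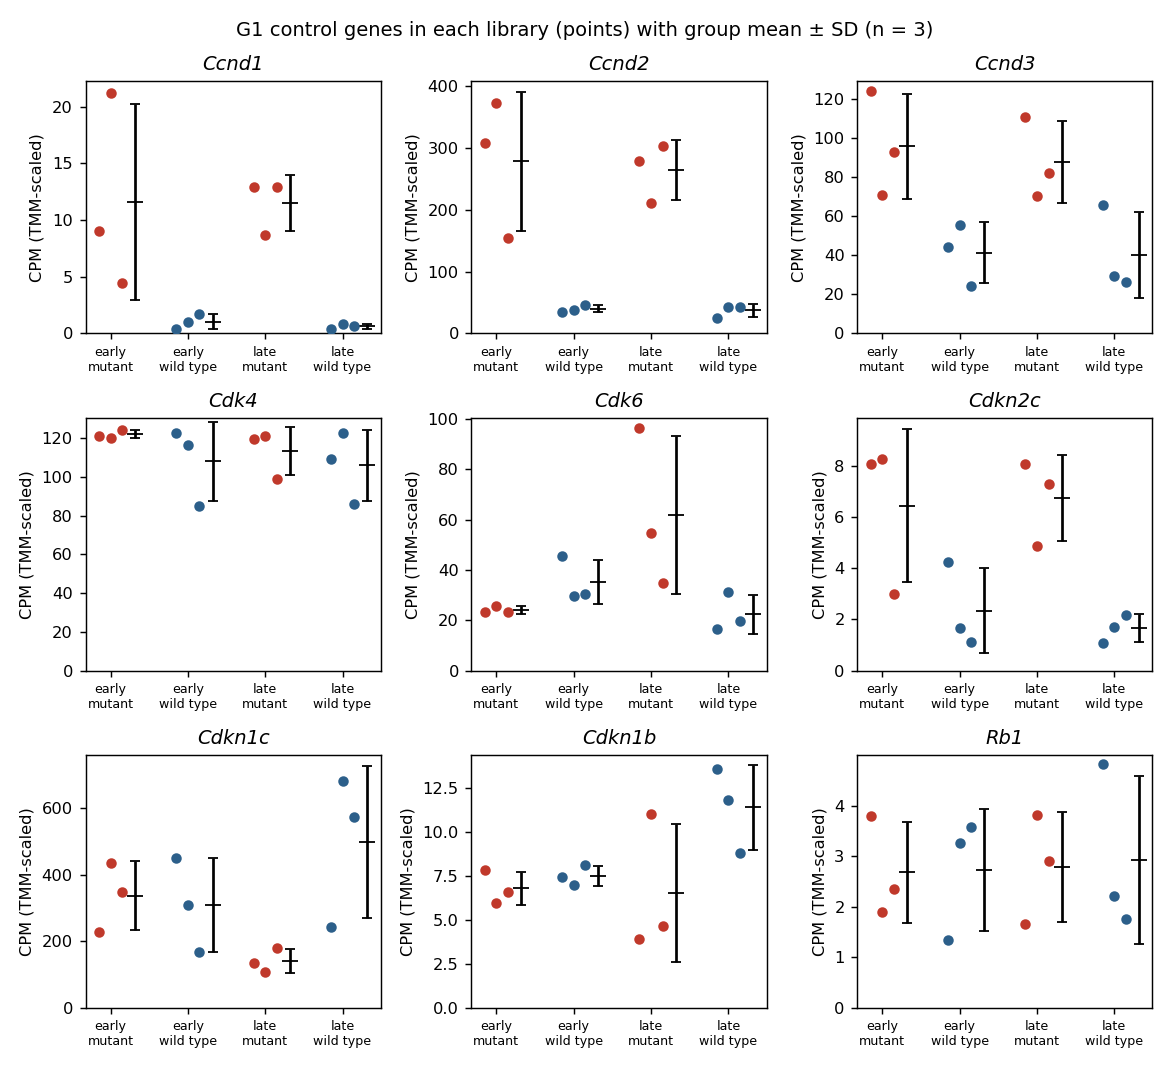
Level of the 9 tested G1 control genes in every library, in TMM-scaled CPM on linear axes from 0, with 1 point per library and the group mean ± SD (n = 3) beside them. Ccnd1 and Ccnd2 points of both mutant groups lie above every wild-type point, while Cdk4 and Rb1 points overlap in all groups.

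Ccnd1 encodes cyclin D1, the D cyclin most often tied to growth factor input. Its level was 9.01, 21.2 and 4.49 CPM in the early mutant libraries, against 0.374, 1.01 and 1.73 CPM in early wild type. In late mutant libraries it was 13.0, 8.69 and 12.9 CPM, against 0.426, 0.803 and 0.622 CPM in late wild type. All 6 mutant libraries lay above all 6 wild-type libraries, and early mutant replicate 3 was the lowest of the mutants. The log2 fold change was 3.45 ± 0.56 (SE) early, with an adjusted p of 0.00297 by edgeR. It was 4.22 ± 0.59 late, with an adjusted p of 0.00076 by edgeR. Its summed reads were 1252 over early mutant and 100 over early wild-type libraries, and 1068 over late mutant and 49 over late wild-type libraries, so the wild-type values rest on few reads. With limma-voom and sample weights the early adjusted p of Ccnd1 was 0.14.

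Ccnd2 encodes cyclin D2. It stood at 307, 372 and 154 CPM in early mutant libraries, against 35.0, 38.5 and 46.3 CPM in early wild type. In late mutant libraries it stood at 279, 210.5 and 303.5 CPM, against 25.4, 43.5 and 43.0 CPM in late wild type. The groups did not overlap at either stage, and early mutant replicate 3 was again the lowest mutant library. The log2 fold change was 2.80 ± 0.33 early (adjusted p = 0.000161, edgeR) and 2.83 ± 0.33 late (adjusted p = 0.000157, edgeR), and both calls held under all 20 alternative settings. The difference between these stage effects was 0.03, with a 95% interval of -0.89 to 0.95 on the log2 scale. Over the 12 libraries the log2 level of Ccnd2 followed that of Ccnd1 with a Pearson r of 0.98, and the deviations from the group means did so with an r of 0.85. This r is a description over libraries that share genotype and batch.

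Ccnd3, cyclin D3, was the D cyclin with the smallest difference. Its level was 124, 70.7 and 92.7 CPM in early mutant libraries, against 44.1, 55.7 and 24.5 CPM in early wild type. Late mutant libraries had 111, 70.3 and 82.0 CPM, against 65.6, 29.2 and 26.1 CPM in late wild type. Every mutant library lay above every wild-type library of its stage, and the highest wild-type values were those of early replicate 2 and late replicate 1. The log2 fold change was 1.21 ± 0.37 early (adjusted p = 0.244, edgeR) and 1.12 ± 0.37 late (adjusted p = 0.071, edgeR), neither past the threshold. Averaged over both stages, a comparison of 6 mutant with 6 wild-type libraries, it was 1.17 ± 0.26 with an adjusted p of 0.0103 by edgeR. Leaving out both of those wild-type libraries, a choice made after seeing the data, takes away the highest wild-type values and so raises the fold. Ccnd3 then passed at both stages, at 1.51 early (adjusted p = 0.0437, edgeR) and 1.79 late (adjusted p = 0.00442, edgeR). In that setting 125 of 18335 genes passed early and 4371 late. The authors' deposited table gives Ccnd3 a q of 0.0306 early and 0.057 late.

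In this averaged comparison 4 of the 10 genes passed, all higher in mutant endothelium, against 6.85% of all genes tested (4.04% higher, 2.81% lower). These were the 3 D cyclins and Cdkn2c, and each passed in all 19 alternative settings. Cdkn1c was at -0.85 ± 0.27 (adjusted p = 0.0655, edgeR), and it was called lower in 7 of the 19 settings, with log2 fold changes from -0.99 to -0.65 over all of them. The D cyclins were also the 3 genes whose mutant libraries lay above the wild-type libraries at both stages, as 3.89% of all genes tested did. RNA of bulk tissue cannot tell fewer cells of a type from less RNA per cell.

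RefSeq promoter windows of build GRCm38.p6, from 250 bases before to 50 after a start site, were given for 6 of the 10 genes, in 9 windows. Ccnd1, Ccnd2, Cdkn1c and Rb1 had no entry. The windows were searched on both strands for the AP-1 site TGANTCA, the cyclic AMP response element (CRE) as TGACGTCA, the E-box as CACGTG, the E2F site as TTTNNCGC, the GC box as GGGCGG and the CCAAT box by its name. Of the 32851 windows of the genome, 7.81% held the AP-1 letters, 1.79% the CRE letters, 7.15% the E-box, 5.17% the E2F letters, 35.7% the GC box and 37.4% the CCAAT box. No window of the 6 genes held the AP-1 or the CRE letters. A window of each gene that changed in some comparison is printed, 5′ to 3′ on the gene's strand, with the matches in capitals. Ccnd3 is at chr17:47593217-47593516 (+), with 2 GC boxes and 1 CCAAT box. Cdk6 is at chr5:3343643-3343942 (+), with 1 E-box and 1 E2F match. Cdkn2c is at chr4:109666707-109667006 (-), with 4 GC boxes.
Ccnd3: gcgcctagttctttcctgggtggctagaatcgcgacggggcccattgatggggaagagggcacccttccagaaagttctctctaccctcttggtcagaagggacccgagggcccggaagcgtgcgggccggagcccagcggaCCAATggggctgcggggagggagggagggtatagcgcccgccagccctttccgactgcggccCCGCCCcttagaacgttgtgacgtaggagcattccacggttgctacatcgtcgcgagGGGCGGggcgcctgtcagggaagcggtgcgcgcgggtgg
Cdk6: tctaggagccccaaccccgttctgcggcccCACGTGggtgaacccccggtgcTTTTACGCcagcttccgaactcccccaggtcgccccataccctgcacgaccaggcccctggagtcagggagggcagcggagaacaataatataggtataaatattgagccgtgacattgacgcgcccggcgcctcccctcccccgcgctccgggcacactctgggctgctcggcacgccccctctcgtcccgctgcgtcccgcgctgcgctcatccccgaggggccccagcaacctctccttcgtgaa
Cdkn2c: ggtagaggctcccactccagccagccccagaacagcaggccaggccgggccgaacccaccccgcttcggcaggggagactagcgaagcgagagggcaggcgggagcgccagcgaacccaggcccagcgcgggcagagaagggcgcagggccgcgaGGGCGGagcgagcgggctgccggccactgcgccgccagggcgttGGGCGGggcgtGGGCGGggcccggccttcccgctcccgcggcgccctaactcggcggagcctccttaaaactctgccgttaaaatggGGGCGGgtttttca
The other Ccnd3 window held 2 GC boxes, and the other Cdkn2c window 1 CCAAT box and 1 E-box. The Cdk4 window held 4 E-boxes and 3 GC boxes, some of which overlap, although Cdk4 passed the threshold in no comparison. A match is a run of letters, not a measured binding site.

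Cdk4, which encodes the kinase partner most abundant here, differed little. It was at 121, 120.2 and 124 CPM in early mutant libraries, against 122, 116.5 and 84.8 CPM in early wild type. Late mutant libraries had 119, 121 and 98.8 CPM, against 109, 122 and 85.9 CPM in late wild type. The groups overlapped at both stages. Its log2 fold change was 0.18 early, with a 95% interval of -0.33 to 0.69, and 0.10 late, with an interval of -0.41 to 0.60, so these libraries leave room for changes up to those bounds. Tspan31, which lies on the opposite strand and overlaps Cdk4, averaged 209 CPM in early mutant and 246 CPM in early wild-type libraries, and 248 CPM in late mutant and 194 CPM in late wild-type libraries. Whether reads were counted by strand was not given in the sources used here, and reads of such a pair could be mixed. Ccnd1 (with LTO1), Ccnd2 (with 9330179D12Rik), Ccnd3 (with Bysl) and Rb1 (with Lpar6) have opposite-strand neighbours of the same kind.

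Cdk6 encodes the other kinase partner of the D cyclins. It stood at 23.4, 25.8 and 23.2 CPM in early mutant libraries, against 45.5, 29.5 and 30.6 CPM in early wild type. Late mutant libraries stood at 96.3, 54.9 and 34.7 CPM, against 16.4, 31.2 and 19.9 CPM in late wild type. Early, every mutant library lay below every wild-type library, and late, every mutant library lay above. Of the 9 genes tested, Cdk6 was the only one whose libraries separated in opposite directions at the 2 stages, as 1.11% of all genes tested did. The log2 fold change was -0.54 ± 0.34 early (adjusted p = 0.618, edgeR) and 1.46 ± 0.34 late (adjusted p = 0.0211, edgeR). The difference of the stage effects was 2.01 ± 0.48, with an unadjusted p of 0.000505 and an adjusted p of 0.118 by edgeR. Late mutant replicate 1 held the highest value, and without it the late log2 fold change was 1.00 (adjusted p = 0.123, edgeR). Without late wild-type replicate 3 the late adjusted p of Cdk6 was 0.0801 by edgeR.

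**Figure D2:**
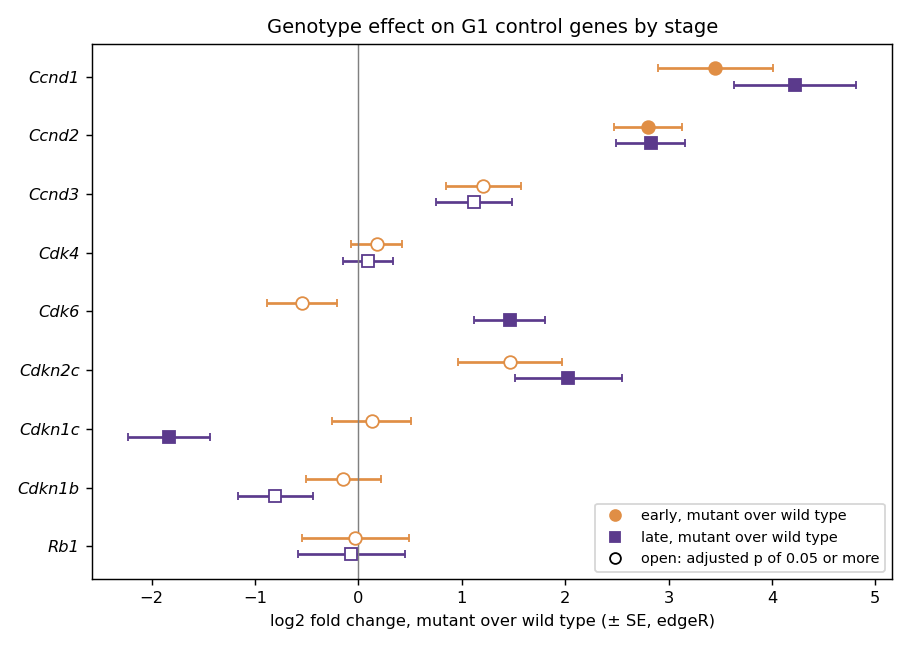
Log2 fold change of mutant over wild type for 9 G1 control genes, as edgeR estimates ± SE, early (circles) above late (squares), with filled symbols past an adjusted p of 0.05. Ccnd1 and Ccnd2 are filled at both stages, and Cdk6 and Cdkn1c lie near 0 or on the other side of 0 early and are filled late.

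Among the inhibitors, Cdkn1c gave the only call below wild type. It encodes p57, an imprinted CIP/KIP inhibitor that restrains proliferation. Cdkn1c was at 229, 436 and 346.5 CPM in early mutant libraries, against 449, 310.0 and 166 CPM in early wild type. In the late mutant libraries it was at 136, 106 and 179 CPM, against 243, 681 and 574 CPM in late wild type. The early groups overlapped throughout, and all 3 late mutant libraries lay below all 3 late wild-type libraries. The log2 fold change was 0.13 ± 0.38 early (adjusted p = 0.908, edgeR) and -1.83 ± 0.39 late (adjusted p = 0.0132, edgeR). The difference of the stage effects was -1.96 ± 0.54 on the log2 scale, with an unadjusted p of 0.0019 and an adjusted p of 0.162 by edgeR. The late adjusted p of Cdkn1c was 0.0667 without late mutant replicate 1, 0.0536 without late mutant replicate 2 and 0.0657 without late wild-type replicate 2, by edgeR. Of the 14 corneal endothelial markers 1 was lower and none higher late, with 6 of 14 above 0, while the mean of Car3, which did not pass (adjusted p = 0.168, edgeR), and the sum lay below late wild type in late mutant libraries. The part of the endothelial share in this result was not tested.

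Cdkn2c encodes the INK4 inhibitor p18, and of the 4 inhibitors among the 10 genes it alone was called higher in the mutant. Its level was 8.06, 8.25 and 3.00 CPM in early mutant libraries, against 4.23, 1.67 and 1.11 CPM in early wild type. The late mutant values were 8.08, 4.85 and 7.29 CPM, against 1.08, 1.69 and 2.18 CPM in late wild type. The late groups did not overlap, and early mutant replicate 3 fell below early wild-type replicate 1. In log2 terms the fold change was 1.47 ± 0.50 early (adjusted p = 0.365, edgeR), 2.03 ± 0.52 late (adjusted p = 0.0297, edgeR) and 1.75 ± 0.36 averaged over stages (adjusted p = 0.006, edgeR). The late call of Cdkn2c held in 15 of 20 alternative settings. It was lost without late mutant replicate 1 or 3 and without late wild-type replicate 2 or 3, with adjusted p-values of 0.0977, 0.0739, 0.088 and 0.0576 in that order by edgeR. It was also lost with limma-voom and sample weights, at an adjusted p of 0.0802.

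Cdkn1b, which encodes p27, passed in no comparison. It was at 7.84, 5.98 and 6.56 CPM in early mutant libraries, against 7.45, 6.99 and 8.12 CPM in early wild type. Late mutant libraries had 3.92, 11.01 and 4.63 CPM, against 13.6, 11.8 and 8.82 CPM in late wild type. Late mutant replicate 2 lay within the wild-type range and the other two late mutant libraries below it, for a log2 fold change of -0.80 ± 0.36 (adjusted p = 0.158, edgeR).

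Cdkn2a, whose products p16 and p19 ARF mark senescent or stressed cells, was barely detected. It had 5, 0 and 0 reads in early mutant libraries, against 0, 1 and 0 in early wild type. It had 0, 3 and 1 reads in late mutant libraries, against 0, 0 and 0 in late wild type. No fold was formed at these counts, and gene counts do not separate its 2 products. With 10 reads in all, neither a difference between groups nor its absence could be shown at this depth.

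Rb1, the target of the D cyclin kinases, was at 3.80, 1.89 and 2.35 CPM in early mutant libraries, against 1.35, 3.25 and 3.58 CPM in early wild type. Late mutant libraries had 1.65, 3.81 and 2.91 CPM, against 4.82, 2.21 and 1.75 CPM in late wild type. The groups overlapped at both stages. Its log2 fold change was -0.03 early and -0.07 late, each with an SE of 0.52, and these intervals span a 2-fold change in either direction.

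Between stages, none of the 10 genes passed the threshold in mutants or in wild type, and neither did any other gene tested by edgeR (0.0% in each comparison). At an unadjusted p under 0.05, edgeR gave 2 of the 9 genes in mutants and 0 in wild type, against 1174 and 724 of all genes tested. Cdk6 averaged 62.0 ± 31.4 CPM in late mutant and 24.2 ± 1.47 CPM in early mutant libraries (SD, n = 3), a log2 difference of 1.36 with an adjusted p of 0.715 by edgeR. Cdkn1c averaged 140.3 ± 36.9 CPM in late mutant and 337 ± 104 CPM in early mutant libraries, a log2 difference of -1.26 with the same adjusted p. DESeq2's Wald test called Cdk6 in mutants (adjusted p = 0.0472) and 42 of 4179 genes in all. In the test of the difference between the stages' genotype effects, none of the 10 genes passed, and 0.00557% of all genes tested did. At an unadjusted p under 0.05 edgeR gave Cdk6 and Cdkn1c, against 2013 of the 17965 genes tested. DESeq2's Wald test called both (adjusted p = 0.0206 for Cdk6 and 0.0438 for Cdkn1c) and 329 of 19157 genes in all.

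Per length, as the authors' FPKM (fragments scaled to gene length and library size), the summed D cyclins amounted to 71.3 FPKM in early mutant and 22.4 FPKM in early wild-type libraries. They amounted to 74.1 FPKM in late mutant and 20.5 FPKM in late wild-type libraries. The ranges were 52.8 to 82.7 against 17.7 to 31.3 early and 67.5 to 79.1 against 14.7 to 32.1 late, without overlap. Ccnd3 made up 52.0% of the sum in early mutant and 74.6% in early wild-type libraries, and 49.7% in late mutant and 74.3% in late wild-type libraries. It was thus the largest share per length in wild type. This rests on the lengths that the FPKM values imply, 2509 bases for Ccnd3 and 8245 for Ccnd2. In CPM, Ccnd3 and Ccnd2 averaged 41.4 and 39.9 in early wild-type and 40.3 and 37.3 in late wild-type libraries. Ccnd2 made up 44.0% in early mutant and 24.0% in early wild-type libraries, with overlapping ranges (32.9 to 57.2% against 17.2 to 35.4%). Late it made up 45.9% in mutant and 24.8% in wild-type libraries, and the ranges did not overlap (41.5 to 50.5% against 10.5 to 33.0%). Ccnd1 stayed a small share, 3.97% in early mutant and 1.44% in early wild type, and 4.35% in late mutant and 0.892% in late wild type.

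Set against Cdkn1c, the most abundant of the 10 genes in 3 of the groups, the summed D cyclins gave an FPKM ratio of 0.749, 0.349 and 0.316 in early mutant libraries, against 0.0939, 0.169 and 0.184 in early wild type. Late mutant libraries had 1.16, 1.02 and 0.783, against 0.233, 0.0484 and 0.053 in late wild type. Mutant libraries lay above wild type at both stages in this ratio, which joins genes already described and was given no test. The order by mean FPKM was Cdkn1c, Cdk4, Ccnd3 in early mutant, early wild-type and late wild-type libraries, with no overlap between Cdkn1c and Cdk4 or between Cdk4 and Ccnd3. In late mutant libraries Cdk4 (85.7 ± 15.9 FPKM) and Cdkn1c (77.2 ± 16.9 FPKM) overlapped. Ccnd3 and Ccnd2 overlapped in both mutant groups, at 36.0 and 32.2 FPKM early and at 36.9 and 34.0 FPKM late. Cdk6 made up 2.27% of the Cdk4 and Cdk6 sum in early mutant and 3.71% in early wild-type libraries, and 5.89% in late mutant and 2.43% in late wild-type libraries.

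**Figure D3:**
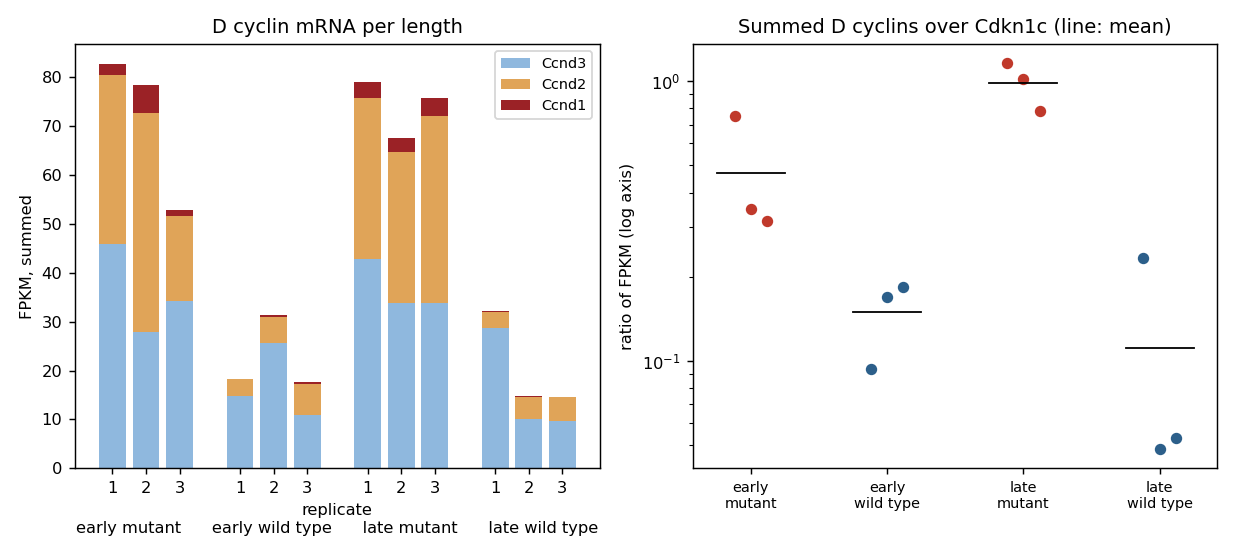
Left, FPKM of the 3 D cyclins stacked for each library on a linear axis from 0; right, summed D cyclin FPKM divided by Cdkn1c FPKM on a log axis, with 1 point per library and the group mean as a line. Mutant libraries sum to 52.8 FPKM or more and wild-type libraries to at most 32.1 FPKM.

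Markers of other cells differed between genotypes beside the D cyclins. A list of 14 macrophage and myeloid markers summed to 256 to 585 CPM in early mutant and 38.6 to 65.7 CPM in early wild-type libraries, and to 406 to 494 CPM in late mutant and 42.5 to 65.2 CPM in late wild-type libraries. Of these 14 genes 7 were called higher early and 12 late, 11 lay above 0 early and 14 late, and none had 0 reads in any group. Lyz2 was the largest part of the sums, at a mean of 272 CPM in early mutant and 26.1 CPM in early wild-type libraries. Late it averaged 253 CPM in mutant and 31.0 CPM in wild-type libraries. Ptprc, Itgam and Mrc1 had log2 fold changes of -1.57, -1.18 and -0.62 early and 2.64, 3.31 and 1.86 late, and of these only Itgam was called, late. Early mutant replicate 3, lowest of the mutants for Ccnd1, Ccnd2 and Cdkn2c, was also lowest for this list. It was lowest of the mutants for the lens (108 CPM) and vascular endothelium (10.3 CPM) lists too. In late mutant replicates 1 to 3 this macrophage list summed to 406, 414 and 494 CPM. In the same order Ccnd1 was at 13.0, 8.69 and 12.9 CPM, Ccnd2 at 279, 210.5 and 303.5 CPM and Cdkn2c at 8.08, 4.85 and 7.29 CPM. A list of 8 photoreceptor and retinal genes summed to 110 to 254 CPM in early mutant and 14.3 to 36.5 CPM in early wild-type libraries, and to 44.1 to 224 CPM in late mutant and 28.8 to 79.3 CPM in late wild-type libraries. The 5 trabecular meshwork genes summed to 233 to 617 CPM in early mutant and 81.3 to 121 CPM in early wild-type libraries, and to 325 to 425 CPM in late mutant and 69.8 to 128 CPM in late wild-type libraries. Of 10 keratocyte markers 2 were higher early and 3 were higher and 1 lower late, with 8 above 0 at each stage. The stromal proteoglycans Kera (5.38-fold early, 5.10-fold late) and Lum (4.68-fold early, 4.45-fold late) were higher at both stages. Ptgds was lower late (2.58-fold). The list summed to 23100 to 26100 CPM in early mutant and 19200 to 29600 CPM in early wild-type libraries. Late it summed to 21800 to 32800 CPM in mutant and 21200 to 26700 CPM in wild-type libraries. These sums overlapped at both stages, and most of each was Dcn, which was not called. The 7 melanocyte and iris pigment genes summed to 91.0 to 229 CPM in early mutant and 30.2 to 44.0 CPM in early wild-type libraries, and to 83.9 to 117 CPM in late mutant and 10.6 to 126 CPM in late wild-type libraries. The 8 lens genes summed to 108 to 204 CPM in early mutant and 141 to 599 CPM in early wild-type libraries, and to 240.0 to 357 CPM in late mutant and 97.7 to 162 CPM in late wild-type libraries, where 2 were called higher. The 7 lymphocyte markers stayed between 0.246 and 5.41 CPM in every library. The part of these cells in the D cyclin, Cdk6, Cdkn1c and Cdkn2c differences was not tested.

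Other genes around the D cyclins were read from 7 lists. A list of mitogen response genes also held Axin2, Lef1 and Tcf7 of the Wnt pathway, each with a log2 fold change below 0 at both stages. Of its 19 tested genes, 3 were higher early and 6 were higher and 1 lower late. Their median log2 fold changes were 0.78 and 1.16, with 12 above 0 early and 13 late. Egr1, an immediate early transcription factor, averaged 48.7 ± 22.0 CPM in early mutant and 4.66 ± 3.16 CPM in early wild-type libraries (adjusted p = 0.000262, edgeR), and 45.4 ± 4.24 CPM in late mutant and 5.32 ± 0.971 CPM in late wild-type libraries (adjusted p = 0.000591, edgeR). The AP-1 genes Jun (3.04-fold early, 3.99-fold late) and Fos (4.64-fold early, 3.25-fold late) passed at both stages. Junb (5.04-fold), the growth regulator Myc (3.76-fold) and the ERK phosphatase Dusp6 (3.55-fold) were called higher late. Tcf7, a nuclear factor of the Wnt pathway, was the 1 lower late (2.79-fold).

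Of 23 tested E2F targets of replication and division, none passed early by edgeR and 6 were higher late, with median log2 fold changes of 0.33 and 1.62. Rrm2, a subunit of the enzyme that makes deoxyribonucleotides, had 309 reads over the late mutant libraries and 0 over late wild type, at least 29.7-fold higher on a floor of 3 counts per library (adjusted p = 0.00136, edgeR). Cdk1, the mitotic kinase, had 420 reads in late mutant and 5 in late wild-type libraries, and its cyclins Ccnb1 and Ccnb2 had 243 and 308 reads in late mutant libraries, against 1 and 2 in late wild type. By edgeR the late adjusted p was 0.00842 for Cdk1, 0.0138 for Ccnb1 and 0.00958 for Ccnb2. Top2a, a topoisomerase of dividing cells, averaged 3.19 ± 0.500 CPM in late mutant and 0.145 ± 0.223 CPM in late wild-type libraries (adjusted p = 0.0265, edgeR). Tk1, thymidine kinase, averaged 2.61 ± 0.212 CPM in late mutant and 0.566 ± 0.203 CPM in late wild-type libraries (adjusted p = 0.0365, edgeR). All of these averaged under 5 CPM in every group, and the macrophage markers above differed in the same libraries. Early no E2F target passed, and 15 of the 23 lay above 0. Tk1 was 5.31-fold higher early (adjusted p = 0.0875, edgeR). Rrm2 and Cdk1 each had 56 reads in early mutant and 4 in early wild-type libraries, and Top2a had 40 against 213. The macrophage markers summed early to 256 to 585 CPM in mutant and 38.6 to 65.7 CPM in wild-type libraries. Of these 14 markers 7 were called and 11 lay above 0 early, against 12 and 14 late. The part of those cells in the E2F target calls was not tested.

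Of the 6 other CDK inhibitors and pocket proteins, 1 was higher late. It was Cdkn1a, which encodes the stress-inducible inhibitor p21, at 77.9 ± 10.2 CPM in late mutant and 16.8 ± 6.79 CPM in late wild-type libraries (adjusted p = 0.0168, edgeR). Early it averaged 73.3 ± 52.3 CPM in mutant and 23.7 ± 13.3 CPM in wild-type libraries (adjusted p = 0.223, edgeR). By edgeR none of the 11 genes of cyclin E, CDK2 and CDK activation, the 10 E2F and DP factors, the 12 genes that degrade D cyclins and p27 or the 7 DREAM complex genes passed at either stage, which does not show that they did not change. Their median log2 fold changes were 0.09 early and 0.34 late, 0.07 and -0.18, -0.10 and -0.40, and -0.41 and -0.12 in that order of lists.

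**Figure D4:**
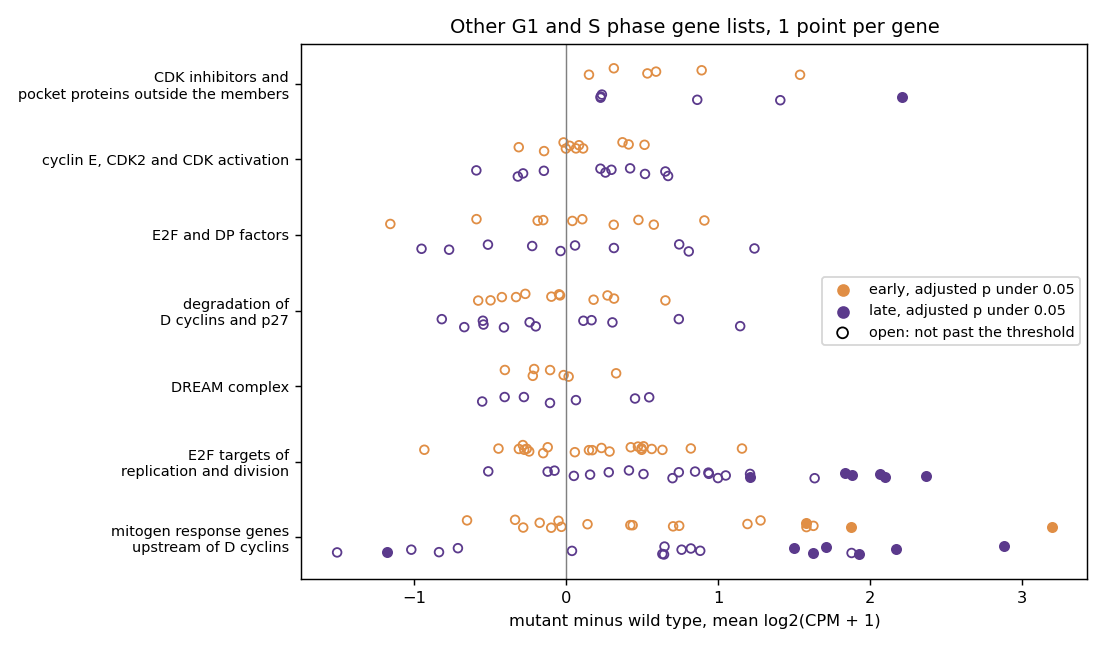
Difference of mutant minus wild type in mean log2(CPM + 1) for each tested gene of 7 lists around the D cyclins, early above late, with filled symbols past an adjusted p of 0.05. Filled symbols lie in the mitogen response list at both stages (3 early, 7 late) and, late, among the E2F targets (6) and the other CDK inhibitors (1). The mitogen response list also holds genes of the Wnt pathway.

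The genes whose log2(CPM + 1) ran most alike with each called gene over the 12 libraries were found among tested genes of at least 5 CPM. For Ccnd1 they were Klf6 (Pearson r 0.987), Nnmt (0.984) and Cebpd (0.982). For Ccnd2 they were Ctla2a (0.987), Lgals3 (0.987) and Nnmt (0.985), so Nnmt stood among the nearest 3 of both. Naglu, G6pdx and Asb6 were nearest to Ccnd3 (0.984, 0.982 and 0.98), and Ccn4, Bcl10 and Yars to Cdkn2c (0.979, 0.973 and 0.962). Cdk6 had Slc35d2 (0.921), Golt1b and Qsox1, and Cdkn1c had Asph (0.956), Nudt16l1 and Bdh2. The 12 libraries share 4 groups, so these values describe the likeness of group patterns as much as of libraries. Within groups, deviations from the group mean followed Ccnd1 with an r of 0.915 for Klf6, and followed Cdkn1c with an r of 0.91 for Asph. Among pairs of the 10 genes, Ccnd1 with Ccnd2 (0.981) and Ccnd2 with Cdkn2c (0.889) were the closest. Ccnd2 with Ccnd3 gave 0.726 over the 12 libraries and -0.431 for the deviations from the group means.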

How the data were processed

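Corneal endothelial RNA of 12 libraries was sequenced as paired ends with a kit that keeps strand, per the labels' protocols. The molecule is given as polyA RNA, while the protocol names mRNA enrichment or rRNA depletion. The tools fastp, HISAT2, HTSeq and DESeq2 and build GRCm39 come, with no versions, per the submitters' processing notes. The annotation and the strand setting were not given in the sources used here. Whole-number counts of reads per gene and FPKM values were deposited by the authors. Per the file headers, the authors' tables of both genotype comparisons hold a fold as a ratio, its log2 value, a p-value and a q-value.

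Counts were tested with edgeR 4.0.16 (R 4.3.3): TMM scaling, filterByExpr on the 4 groups (14796 genes removed), robust quasi-likelihood F tests over all libraries at once (8 residual degrees of freedom), and Benjamini-Hochberg adjustment over the 17965 genes left, at 0.05. Contrasts were mutant against wild type early, late and averaged, their difference, and late against early in each genotype. The common biological coefficient of variation was 0.464. SEs were derived from the F statistic. The procedure was tested on simulated counts. FPKM values served for levels between genes.

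All 10 genes are given whatever their p. Of each other list up to 6 genes past the threshold are named, smallest p first, and the 3 closest genes by r for each gene called. The members and lists were chosen with earlier results of these data known. Replicates are called biological in the design text.

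Alternatives were DESeq2 size factors, no filter, 5 CPM in 3 libraries, DESeq2 1.42.0 Wald tests, limma-voom with sample weights (limma 3.58.1), the compared libraries alone, a replicate block and each library left out. Leaving out 2 doubted libraries, late wild-type replicate 1 and early wild-type replicate 2, was chosen after seeing the data. RefSeq tables of GRCm38.p6 gave promoter windows, names and overlapping genes only. Numbered replicates of both genotypes did not deviate together (r from -0.09 to 0.08), so they were not taken as pairs.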

Additional observations from a re-analysis of the deposited data

Results flagged for a closer look

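The genotype effect on Cdk6 differed between stages by 2.01 on the log2 scale (late minus early). Every early mutant library lay below every early wild-type library, and every late mutant library lay above every late wild-type library. The test of this difference gave an adjusted p of 0.118 by edgeR. Stage and batch cannot be told apart here.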

How the results depend on the processing

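Of 20 alternative settings, Ccnd2 kept its early and late calls in all, Ccnd1 its late call in all and its early call in 19 (limma-voom excepted), and the late calls of Cdk6, Cdkn1c and Cdkn2c held in 16, 17 and 15. The number of the 10 genes called late ranged from 2 to 6 with 1 library left out (5 with all): 2 without late mutant replicate 1 and 3 without late wild-type replicate 2 or 3. Calls among them for the stage difference were 2 with no filter, 2 by DESeq2's Wald test and 0 to 1 with 1 library left out (Cdkn1c without late wild-type replicate 1). Over all genes these settings called 297 of 32761 with no filter, 329 of 19157 by DESeq2 and 199 of 19241 without late wild-type replicate 1. Late against early in mutants gave 2 with no filter (53 of 32761 genes) and 1 by DESeq2 (42 of 4179 genes). Genes called early were 106, against 361 with no filter, 250 by DESeq2 and 51 to 179 with 1 library left out. Genes called late were 983, against 1507 with no filter, 2514 by DESeq2, 1728 by limma-voom, 489 with the compared libraries alone, 4371 without both doubted libraries and 229 to 3909 with 1 library left out (3909 without late wild-type replicate 1). With the replicate block, which does not pair animals here, genes called late were 456 and the late adjusted p of Cdk6 was 0.0515 by edgeR.

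Signs turned only for values that no setting called. With 1 library left out, the stage difference ran from -0.27 to 0.35 for Ccnd2, from -0.333 to 0.53 for Ccnd3, from -0.214 to 0.059 for Cdk4, from -0.20 to 0.91 for Cdkn2c and from -0.32 to 0.61 for Rb1. Other such ranges were -0.16 to 0.52 for Cdkn1c early, -0.027 to 0.27 for Cdk4 late, and for Rb1 -0.35 to 0.24 early, -0.33 to 0.62 late and -0.21 to 0.32 averaged. The stage difference without both doubted libraries was -0.052 for Ccnd2 and 0.29 for Ccnd3, and with the stricter filter 0.053 for Ccnd3 and 0.074 for Cdk4. By limma-voom that of Ccnd3 was 0.15, and Rb1 was 0.31 late, 0.089 averaged and 0.43 for the difference. With the replicate block Rb1 was 0.020 late, 0.0092 averaged and 0.022 for the difference. Without both doubted libraries it was 0.12 early, 0.62 late, 0.37 averaged and 0.50 for the difference, and with no filter 0.027 early. The cause of these turns was not tested. Depth limits what can be said of Cdkn2a and of Ccnd1 in wild type.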
